A study of Mus musculus with 13 samples.

Results

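The genes described here are a list of 40 genes of vascular endothelium, the cell layer that lines blood vessels, measured in mouse tail tissue with lymphedema. The list was set by gene symbol, and earlier results of these data were known when it was chosen. All 40 were found by their Ensembl identifiers among the 55357 genes of the count table, and all 40 were among the 22876 genes with enough counts to be tested. They fall into 6 groups by role: 7 genes of cell junctions and adhesion, 13 of the cell surface, matrix and signalling, 7 transcription factors, 4 capillary genes, 3 tip cell and apelin genes, and 6 genes of venules and their activation. The first 2 of these groups are pan-endothelial, that is, used by endothelium of most vessels.

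Endothelial cells hold the vessel wall together with VE-cadherin (Cdh5), PECAM-1 (Pecam1) and claudin-5 (Cldn5), and ETS family transcription factors keep much of this programme on. New vessels are led by tip cells, which secrete ESM1 and apelin, while the cells behind them carry the apelin receptor. In the venules of inflamed skin, cytokines induce P-selectin, E-selectin, VCAM-1 and ICAM-1, which catch passing leukocytes and let them leave the blood.

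The study set 6 samples labelled TNTProx1 against 7 labelled TNTSham. TNT is read here as tissue nanotransfection, the electrical transfer of nucleic acid into skin, and Prox1 encodes the homeobox factor of lymphatic endothelial identity. All 13 samples were tail tissue taken on day 28 after TNT at an age of 12 weeks, so both groups share the lymphedema and the procedure. The labels used here name no strain, construct, promoter or sham cargo, and do not say whether samples came from separate animals, so p-values measure only the spread between these samples. Libraries were ribosome-depleted total RNA of whole tissue. In such bulk samples, more endothelial cells and more RNA per cell cannot be told apart.

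The total count per library was 35.0M to 48M (M, mega) in TNTProx1 and 29.7M to 47.9M in TNTSham. Prox1 itself stood at 18.7 to 72.9 CPM (counts relative to the scaled library total) in TNTProx1 and 23.4 to 33.1 CPM in TNTSham, with an edgeR adjusted p of 0.506. Defining markers of blood endothelium were counted in each of the 13 libraries, with Pecam1 at 94.6 to 215 CPM, Cdh5 at 70.8 to 249, Emcn at 14.5 to 34.4 and Tie1 at 22.7 to 68.8. TNTProx1 4, 5 and 6 stood apart, with 0.136 to 0.193% of their counts on TEC gene models, which are often unspliced, against 0.565 to 0.745% in TNTProx1 1 to 3 and 0.378 to 0.701% in TNTSham. Results are therefore also given for the 10 libraries without them. TNTSham 1 was the only library high in Xist, a transcript of the inactive X chromosome of females, at 2095 CPM, against at most 2.01 CPM in the other 12.

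The promoters of 7 members are shown for the letters that ETS factors and NF-kappaB can bind. RefSeq windows on build GRCm38.p6, which cover the stretch just before a gene's start and the first bases after it, were at hand for 19 of the 40 members. Printed 5′ to 3′ on the gene's own strand are the member of smallest p with an entry in each of 5 role groups, and Sele and Icam1 for the cytokine-induced venular genes. Capitals mark AGGAAG on either strand, a run that holds the core bound by ETS factors, and GGNNNTTCC on either strand, a short form of the site bound by NF-kappaB. The windows are Cldn5 at chr16:18776597-18776896 (plus strand), Egfl7 at chr2:26580833-26581132 (plus), Elk3 at chr10:93311110-93311409 (minus), Emcn at chr3:137340828-137341127 (plus), Apln at chrX:48034804-48035103 (minus), Sele at chr1:164047984-164048283 (plus) and Icam1 at chr9:21015690-21015989 (plus).
Cldn5: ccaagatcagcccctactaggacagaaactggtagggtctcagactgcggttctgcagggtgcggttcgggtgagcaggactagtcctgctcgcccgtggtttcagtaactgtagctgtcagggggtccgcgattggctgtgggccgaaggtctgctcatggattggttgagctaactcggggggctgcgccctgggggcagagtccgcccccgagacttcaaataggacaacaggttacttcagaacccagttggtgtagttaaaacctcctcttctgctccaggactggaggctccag
Egfl7: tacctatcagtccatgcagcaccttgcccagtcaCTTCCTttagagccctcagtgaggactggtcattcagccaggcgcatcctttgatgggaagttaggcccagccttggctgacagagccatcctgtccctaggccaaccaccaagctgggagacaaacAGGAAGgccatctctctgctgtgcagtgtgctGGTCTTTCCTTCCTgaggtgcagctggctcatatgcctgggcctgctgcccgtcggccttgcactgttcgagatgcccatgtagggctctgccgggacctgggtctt
Elk3: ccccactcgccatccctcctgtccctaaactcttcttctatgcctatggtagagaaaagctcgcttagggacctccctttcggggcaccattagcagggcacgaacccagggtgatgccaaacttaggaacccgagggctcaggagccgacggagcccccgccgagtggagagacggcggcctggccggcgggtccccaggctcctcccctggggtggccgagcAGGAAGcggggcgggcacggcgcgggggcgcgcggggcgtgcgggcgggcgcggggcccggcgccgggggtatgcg
Emcn: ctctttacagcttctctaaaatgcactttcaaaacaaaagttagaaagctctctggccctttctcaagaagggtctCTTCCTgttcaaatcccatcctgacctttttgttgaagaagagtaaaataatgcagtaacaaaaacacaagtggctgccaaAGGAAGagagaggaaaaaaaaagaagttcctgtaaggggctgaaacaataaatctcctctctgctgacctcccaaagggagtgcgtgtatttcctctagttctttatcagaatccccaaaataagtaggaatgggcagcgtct
Apln: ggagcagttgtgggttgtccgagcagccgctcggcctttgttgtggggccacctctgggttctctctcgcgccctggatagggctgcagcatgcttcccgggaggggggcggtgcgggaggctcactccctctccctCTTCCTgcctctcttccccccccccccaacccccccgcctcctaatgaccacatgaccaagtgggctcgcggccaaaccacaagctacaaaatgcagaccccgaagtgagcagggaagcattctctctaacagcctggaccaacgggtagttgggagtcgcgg
Sele: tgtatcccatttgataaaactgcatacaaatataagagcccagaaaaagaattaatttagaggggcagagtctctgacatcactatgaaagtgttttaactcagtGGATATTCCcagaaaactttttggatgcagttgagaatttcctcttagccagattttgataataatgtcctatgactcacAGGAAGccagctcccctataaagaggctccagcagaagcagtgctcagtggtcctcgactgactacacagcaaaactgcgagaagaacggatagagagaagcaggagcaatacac
Icam1: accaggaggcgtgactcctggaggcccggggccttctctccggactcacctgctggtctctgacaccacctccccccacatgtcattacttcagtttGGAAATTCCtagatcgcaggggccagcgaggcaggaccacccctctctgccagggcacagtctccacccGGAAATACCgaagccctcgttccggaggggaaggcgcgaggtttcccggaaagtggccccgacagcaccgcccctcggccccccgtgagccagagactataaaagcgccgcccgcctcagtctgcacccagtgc
AGGAAG occurred 3 times in the printed Egfl7 window and 2 times in that of Emcn. It occurred 1 time in those of Elk3, Apln and Sele, and not in those of Cldn5 and Icam1. Egfl7 has further starts that are not printed. The window at chr2:26583615-26583914 held AGGAAG 2 times and GGNNNTTCC 1 time, and that at chr2:26586386-26586685 held neither. The 19 members have 24 starts in the table, of which 15 held it, against 35.4% of all 32851 windows in the table. GGNNNTTCC matched 3 times in the Icam1 window, where 1 run of letters matched on both strands, 1 time in those of Sele and Egfl7, and lay in 7 of the 24 starts, against 18.5% of all windows. The other letters searched on both strands were found at fewer starts. AGATAA, which factors of the GATA family can bind, was held by 4 of 24, against 11.2% of all windows. TGTTTAC, for the forkhead family, was held by 1 of 24, against 3.6%, and ACAATG, for the SOX family, by 1 of 24, against 12.6%. In the Egfl7 window the GGNNNTTCC match and the AGGAAG match next to it share a base. A match describes the window and does not show that a factor binds there.

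Blood endothelial genes stood higher in TNTProx1 than in TNTSham tissue for 37 of the 40 members, with a median log2 fold change of 0.48, against -0.02 over all genes tested. Of all genes tested, 47.7% stood higher. The shift was spread over junction, surface, capillary and tip cell genes, at medians of 0.55 to 0.71 by group. Transcription factors had a median of 0.40, while the 6 venular and activation genes had a median of 0.10. No single member passed edgeR's quasi-likelihood test after Benjamini-Hochberg adjustment over all genes, where 0% of genes were called higher. At an unadjusted p under 0.05 the same test placed 26 members higher and 0 lower, against 8.33% of all genes higher and 3.92% lower. DESeq2 called 15 members higher and 0 lower after adjustment, against 2.64% of the genes it gave an adjusted p. Limma voom with quality weights called 12 higher, against 1.86% of all genes. The share of counts on mitochondrially encoded genes separated the groups without overlap, at 0.652 to 1.268% in TNTProx1 and 1.292 to 2.11% in TNTSham, and its part in the endothelial values was not tested.

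In 4 members, Pcdh12, Egfl7, Elk3 and Emcn, each of the 6 TNTProx1 libraries lay above each of the 7 TNTSham libraries, a pattern seen in 0.398% of all genes. The smallest edgeR adjusted p in the whole table was 0.0848, shared by 33 genes, of which 4 were members: Egfl7, Pcdh12, Elk3 and Plvap. Without TNTProx1 4 to 6 the median of the members was 0.50, and 22 members stood higher at an unadjusted p under 0.05 against 9.34% of genes in that fit. In the same fit 1 member, Sox7, stood lower, against 12.1% of genes. Group medians in that fit were 0.63 for tip cell and apelin, 0.59 for surface and 0.53 for junction genes. They were 0.47 for both capillary genes and transcription factors, and 0.21 for venular genes. With the TEC share as a covariate, edgeR called 5 members higher after adjustment, Pcdh12, Egfl7, Elk3, Plvap and Aplnr, against 0.782% of all genes.

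**Figure D1:**
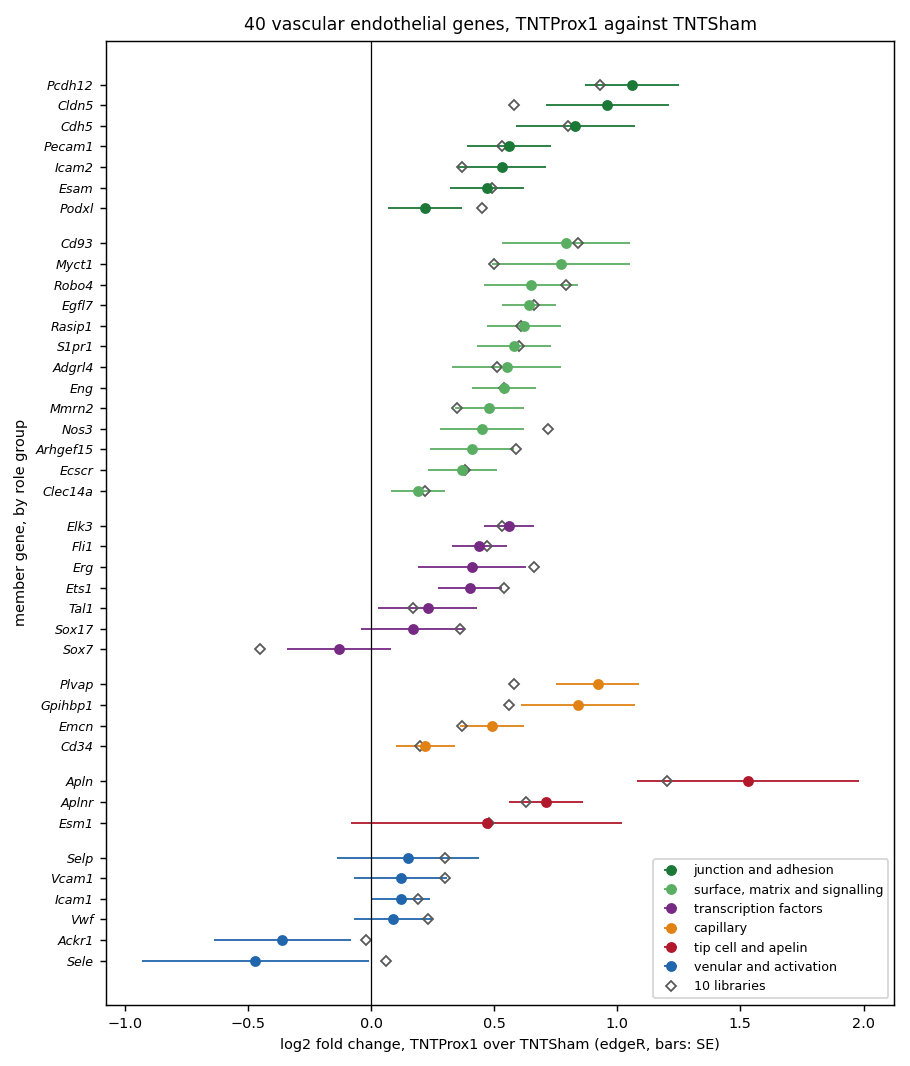
Log2 fold change, TNTProx1 over TNTSham, of each of the 40 members by role group, with standard errors as bars and the value without TNTProx1 4 to 6 (10 libraries) as an open diamond. Values run from -0.47 (Sele) to 1.53 (Apln), 37 of 40 lie above 0, and the 6 venular and activation genes lie at 0.15 or below.

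Genes of junctions and adhesion stood higher in TNTProx1 in 7 of 7, with a median log2 fold change of 0.56 and a range of 0.22 to 1.06. At an unadjusted p under 0.05 edgeR placed 6 of them higher, and 3 were called by DESeq2: Pcdh12, Cldn5 and Cdh5. Pcdh12, a protocadherin of endothelial junctions, had 13.2, 15.9 and 21.2 CPM as lowest, median and highest in TNTProx1, against 5.31, 7.62 and 12.2 CPM in TNTSham. The groups did not overlap, and means were 16.3 ± 2.93 CPM in TNTProx1 (SD, n = 6) and 7.84 ± 2.37 CPM in TNTSham (SD, n = 7). Its log2 fold change was 1.06 ± 0.19 (SE), with an adjusted p of 0.0848 in edgeR and 0.000122 in DESeq2, and it was 0.93 without TNTProx1 4 to 6.

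Cldn5, the main claudin of endothelial tight junctions, had 8.49, 21.2 and 28.5 CPM as lowest, median and highest in TNTProx1, against 6.22, 9.63 and 13.5 CPM in TNTSham. All but 1 TNTProx1 library lay above the highest TNTSham library. The log2 fold change was 0.96 ± 0.25 (SE), with an adjusted p of 0.132 in edgeR and 0.015 in DESeq2. Without TNTProx1 4 to 6 it was 0.58.

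Cdh5, the cadherin of endothelial adherens junctions, had 146, 184 and 249 CPM in TNTProx1 in the same order, against 70.8, 89.0 and 192 CPM in TNTSham. The groups overlapped through 2 TNTSham libraries, TNTSham 1 and TNTSham 5. The log2 fold change was 0.83 ± 0.24 (SE), with an adjusted p of 0.156 in edgeR and 0.0319 in DESeq2. Pecam1, which joins endothelial cells to each other and to leukocytes, had 155, 174 and 215 CPM in TNTProx1, against 94.6, 101 and 183 CPM in TNTSham. Its log2 fold change was 0.56 ± 0.17 (SE), with an adjusted p of 0.179 in edgeR and 0.0595 in DESeq2. Esam and Icam2, further adhesion proteins of endothelium, had log2 fold changes of 0.47 ± 0.15 and 0.53 ± 0.18 (SE), and Podxl, a sialomucin of the luminal surface, 0.22 ± 0.15 (SE). Podxl was at 0.45 without TNTProx1 4 to 6 and at 0.09 without TNTProx1 2. None of Pecam1, Esam, Icam2 and Podxl was called by edgeR or DESeq2. Of these, limma voom with quality weights called Esam, with an adjusted p of 0.0473.

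**Figure D2:**
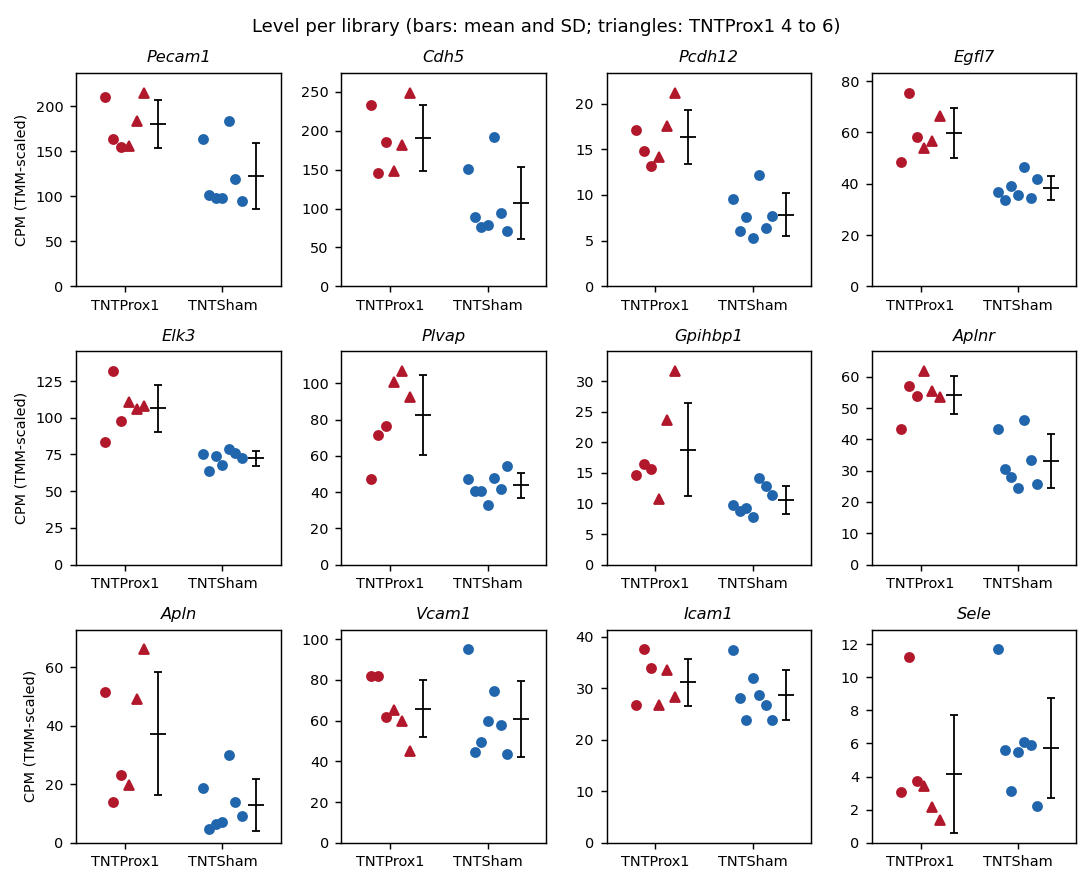
CPM per library of selected members in TNTProx1 (n = 6) and TNTSham (n = 7), on axes that start at 0, with the mean and SD of each group and with TNTProx1 4 to 6 as triangles. Pcdh12, Egfl7 and Elk3 do not overlap between groups, Cdh5 and Pecam1 overlap through TNTSham 1 and 5, and Vcam1, Icam1 and Sele overlap over most of their range.

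Genes of the cell surface, matrix and signalling stood higher in TNTProx1 in 13 of 13, with a median log2 fold change of 0.55 and a range of 0.19 to 0.79. At an unadjusted p under 0.05 edgeR placed 12 of them higher, and DESeq2 called 5: Egfl7, Eng, Rasip1, Mmrn2 and S1pr1. Egfl7, a matrix protein secreted by endothelium that shapes vessel tubes, had 48.5, 57.3 and 75.5 CPM as lowest, median and highest in TNTProx1, against 33.6, 36.8 and 46.5 CPM in TNTSham. The groups did not overlap. Means were 59.8 ± 9.63 CPM in TNTProx1 (SD, n = 6) and 38.3 ± 4.61 CPM in TNTSham (SD, n = 7). This gave a log2 fold change of 0.64 ± 0.11 (SE), with an adjusted p of 0.0848 in edgeR and 0.00027 in DESeq2. Egfl7 lay at 0.56 to 0.70 when each library was left out in turn.

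Eng encodes endoglin, a co-receptor of TGF-beta and BMP9, and had 70.6, 77.4 and 90.7 CPM in TNTProx1, against 41.8, 50.7 and 72.8 CPM in TNTSham. Only the lowest TNTProx1 library fell below the highest TNTSham library. The log2 fold change was 0.54 ± 0.13 (SE), with an adjusted p of 0.123 in edgeR and 0.0145 in DESeq2. Rasip1, a Rap1 and Ras effector needed for vessel lumens, had 14.1, 19.5 and 22.9 CPM in TNTProx1, against 9.17, 12.0 and 15.9 CPM in TNTSham. Here too 5 of 6 TNTProx1 libraries lay above all of TNTSham, with a log2 fold change of 0.62 ± 0.15 (SE) and an adjusted p of 0.123 in edgeR and 0.0136 in DESeq2.

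S1pr1, the sphingosine 1-phosphate receptor that steadies the endothelial barrier, was at 0.58 ± 0.15 (log2 fold change, SE) with a DESeq2 adjusted p of 0.0254. Mmrn2, a matrix ligand of Cd93, had 0.48 ± 0.14 (SE) and 0.0457, and Cd93 itself, a C-type lectin receptor, had 0.79 ± 0.26 (SE) and 0.0712. The other members of the group, none called by edgeR or DESeq2, were Robo4, a guidance receptor, at 0.65, Myct1 at 0.77, Adgrl4, an adhesion G protein-coupled receptor, at 0.55, Nos3, the endothelial nitric oxide synthase, at 0.45, Arhgef15 at 0.41, Ecscr at 0.37 and Clec14a at 0.19. Limma voom with quality weights called Robo4, Nos3 and Arhgef15, with adjusted p-values of 0.034, 0.0361 and 0.0361. Nos3 was at 0.72 and Myct1 at 0.50 without TNTProx1 4 to 6. Clec14a, another lectin receptor, was the only gene of the 13 with an unadjusted edgeR p above 0.05, at 0.105.

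Transcription factors of endothelium stood higher in TNTProx1 in 6 of 7, with a median log2 fold change of 0.40 and a range of -0.13 to 0.56. At an unadjusted p under 0.05 edgeR placed 3 higher, all of the ETS family, and DESeq2 called Elk3 and Fli1. Elk3, an ETS factor that acts as a repressor or activator, had 83.2, 107 and 132 CPM as lowest, median and highest in TNTProx1, against 63.5, 73.8 and 78.6 CPM in TNTSham. The groups did not overlap, and the log2 fold change was 0.56 ± 0.10 (SE), with an adjusted p of 0.0848 in edgeR and 0.00027 in DESeq2. Fli1 had 58.8, 61.2 and 72.0 CPM in TNTProx1, against 38.5, 42.3 and 59.1 CPM in TNTSham, so that a single TNTSham library reached into the TNTProx1 range. Its log2 fold change was 0.44 ± 0.11 (SE), with an adjusted p of 0.123 in edgeR and 0.0146 in DESeq2.

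Ets1 had 77.6, 88.4 and 113 CPM in TNTProx1, against 58.0, 64.7 and 89.3 CPM in TNTSham, so that 2 TNTSham libraries reached into the TNTProx1 range. The fold change of Ets1 was 0.40 ± 0.13 on the log2 scale (SE), with a DESeq2 adjusted p of 0.11. Erg, the ETS factor most tied to endothelial identity, had 11.9, 26.5 and 29.7 CPM in TNTProx1, against 12.6, 17.1 and 27.1 CPM in TNTSham. The lowest of the 13 libraries for Erg was thus a TNTProx1 library, and the log2 fold change was 0.41 ± 0.22 (SE) with an edgeR adjusted p of 0.471. Without TNTProx1 4 to 6 the value for Erg was 0.66, with an edgeR adjusted p of 0.0812 in that fit. Fli1, Ets1 and Elk3 are also used by leukocytes or stromal cells, so they mark endothelium less strictly than Erg.

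The 2 SOX factors of the list had no unadjusted edgeR p under 0.05, while Sox18, which is not on it, is described with the vascular regulators. Sox17, which acts in arterial endothelium, was at 0.17 ± 0.21 (log2 fold change, SE), and at 0.36 without TNTProx1 4 to 6. Sox7, its close relative, had 20.6, 40 and 67.2 CPM in TNTProx1, against 39.4, 45.1 and 52.9 CPM in TNTSham, and a log2 fold change of -0.13 ± 0.21 (SE). Without TNTProx1 4 to 6 it was -0.45, with an unadjusted edgeR p of 0.0355. The TNTProx1 libraries spread over both sides of TNTSham, lowest in TNTProx1 2 and highest in TNTProx1 6. The summed level of 7 keratinocyte markers was also lowest in TNTProx1 2, at 5268 CPM, and highest in TNTProx1 6, at 53240 CPM, and the part of this in the Sox7 values was not tested. Tal1, a basic helix-loop-helix factor of blood and endothelial precursors, was at 0.23 ± 0.20 (log2 fold change, SE).

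The 4 capillary genes stood higher in TNTProx1, with a median log2 fold change of 0.66 and a range of 0.22 to 0.92. At an unadjusted p under 0.05 edgeR placed 3 higher, and DESeq2 called 3: Plvap, Gpihbp1 and Emcn. Plvap, the protein of the diaphragms across fenestrae and caveolae, had 47.5, 84.5 and 107 CPM as lowest, median and highest in TNTProx1, against 32.8, 41.7 and 54.7 CPM in TNTSham. All TNTProx1 libraries but the lowest lay above TNTSham. The log2 fold change was 0.92 ± 0.17 (SE), with an adjusted p of 0.0848 in edgeR and 0.000195 in DESeq2. It was 0.58 without TNTProx1 4 to 6, each of which lay above each of TNTProx1 1 to 3. The median of the 4 capillary genes was 0.47 without TNTProx1 4 to 6.

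Gpihbp1, which holds lipoprotein lipase on the capillary wall, had 10.8, 16.0 and 31.7 CPM in TNTProx1, against 7.71, 9.68 and 14.1 CPM in TNTSham, with 5 of 6 TNTProx1 libraries above all of TNTSham. For Gpihbp1 the log2 fold change was 0.84 ± 0.23 (SE), with a DESeq2 adjusted p of 0.0217, and 0.56 without TNTProx1 4 to 6. Emcn, a sialomucin of capillaries and veins, had 26.3, 29.5 and 34.4 CPM in TNTProx1, against 14.5, 21.3 and 26.2 CPM in TNTSham. The groups touched without overlapping, and the log2 fold change was 0.49 ± 0.13 (SE) with a DESeq2 adjusted p of 0.0149. Cd34, a sialomucin also carried by fibroblasts and progenitor cells, had 124, 151 and 159 CPM in TNTProx1, against 104, 116 and 172 CPM in TNTSham, where the highest of all 13 libraries was found. For Cd34 the log2 fold change was 0.22 ± 0.12 (SE), with an edgeR adjusted p of 0.486.

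Of a further list of 9 capillary genes, 8 were tested and 7 stood higher. They had a median log2 fold change of 0.21, with 2 higher at an unadjusted p under 0.05, Aqp1 at 0.43 ± 0.13 and Cav1 at 0.38 ± 0.15 (SE). DESeq2 called 0 of them, and the median was 0.01 without TNTProx1 4 to 6.

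The tip cell and apelin genes had the largest single difference of the 40. Apln, the apelin peptide made by tip cells, had 14.0, 36.2 and 66.3 CPM as lowest, median and highest in TNTProx1, against 4.85, 9.30 and 30.1 CPM in TNTSham. The groups overlapped, with 3 of 6 TNTProx1 libraries above all of TNTSham. Means were 37.4 ± 21.2 CPM in TNTProx1 (SD, n = 6) and 12.9 ± 8.97 CPM in TNTSham (SD, n = 7). This gave a log2 fold change of 1.53 ± 0.45 (SE), with an adjusted p of 0.166 in edgeR and 0.0208 in DESeq2. The fold change was 1.20 without TNTProx1 4 to 6 and 1.29 to 1.90 when each library was left out in turn.

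Aplnr, its receptor on the endothelium behind the tip, had 43.3, 54.7 and 61.9 CPM in TNTProx1, against 24.3, 30.4 and 46.3 CPM in TNTSham, with 5 of 6 TNTProx1 libraries above all of TNTSham. The log2 fold change was 0.71 ± 0.15 (SE), with an adjusted p of 0.104 in edgeR and 0.00357 in DESeq2. Esm1, a proteoglycan secreted by tip cells, had 1.38, 2.45 and 4.76 CPM in TNTProx1, against 0.573, 0.95 and 6.82 CPM in TNTSham. The highest of all 13 libraries was TNTSham 1, and the log2 fold change of 0.47 ± 0.55 (SE) became 1.21 when that library was left out. Its edgeR adjusted p was 0.76, and the standard error was larger than the difference. The median of the 3 tip cell and apelin genes was 0.71, and 1.21 without TNTSham 1.

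A list of 13 further tip cell genes stood higher in TNTProx1 in 13 of 13, with a median log2 fold change of 0.75. The list includes the matrix genes Col4a1, Col4a2, Nid1, Nid2 and Lama4, which cells other than endothelium also express. The part of such cells in these values was not tested. At an unadjusted p under 0.05 edgeR placed 10 of them higher, and DESeq2 called 6. Pgf, a growth factor that binds VEGF receptor 1, averaged 4.03 ± 1.13 CPM in TNTProx1 and 1.91 ± 0.816 CPM in TNTSham (SD, n = 6 and 7). Its log2 fold change was 1.07 ± 0.27 (SE) with a DESeq2 adjusted p of 0.0118. Cxcr4, a chemokine receptor of tip cells and leukocytes, had 0.78 ± 0.21 (SE) and 0.0313. The median of this list was 0.73 without TNTProx1 4 to 6, where 12 of 13 stood higher and Adm was at -0.05. Among 25 other vascular growth factor receptors and regulators, 21 stood higher, with a median of 0.23, and DESeq2 called 5. Tie1, an orphan receptor of endothelium, had the smallest p among them, at 0.82 ± 0.14 (SE), with an adjusted p of 0.0848 in edgeR and 0.000216 in DESeq2, and next by p was Sox18, a SOX factor of vessels, at 1.0 ± 0.24 (SE) and a DESeq2 adjusted p of 0.0071.

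**Figure D3:**
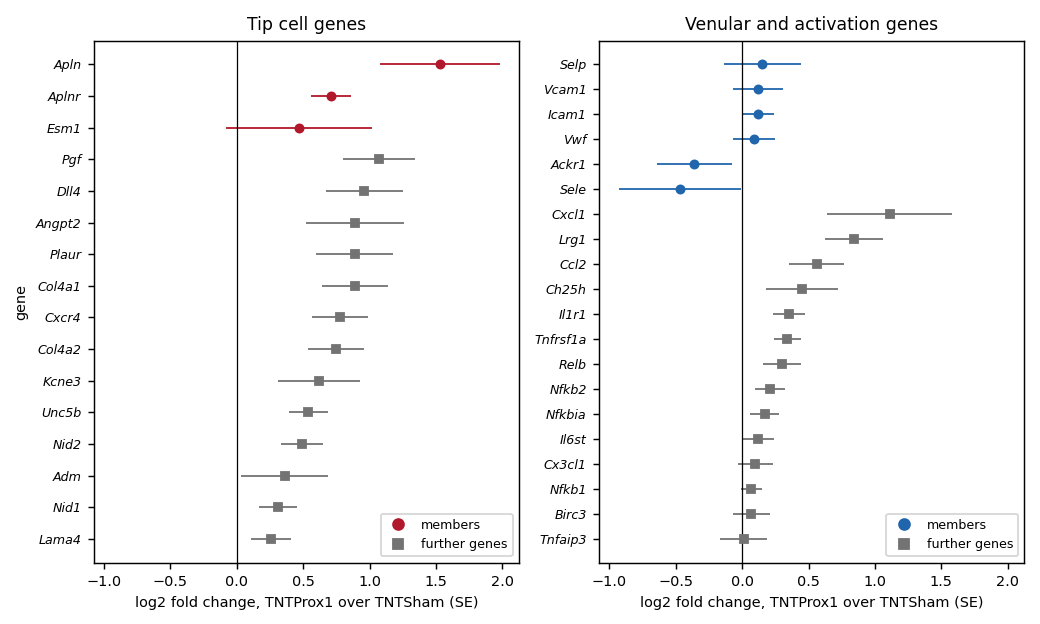
Log2 fold change, TNTProx1 over TNTSham, with standard errors, of the tip cell genes on the left and the venular and activation genes on the right, members as coloured circles and genes of the further lists as grey squares. All 13 further tip cell genes lie above 0, as do the 14 further venular activation genes, while the 6 venular members lie between -0.47 and 0.15.

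The venular and activation genes overlapped between the groups. Their median log2 fold change was 0.10, with a range of -0.47 to 0.15, 4 of 6 above 0, and none past an unadjusted p of 0.05 in edgeR or called by DESeq2. With a score of skeletal muscle markers as a covariate their median was -0.33, and without TNTProx1 4 to 6 it was 0.21. Without TNTSham 1 it was 0.19. Vwf, the clotting protein stored in Weibel-Palade bodies, had 57.8, 70.9 and 89.3 CPM as lowest, median and highest in TNTProx1, against 49.2, 61 and 92.1 CPM in TNTSham. The TNTProx1 range lay inside that of TNTSham, and the log2 fold change was 0.09 ± 0.16 (SE). Selp, P-selectin from the same storage bodies, had 8.65, 17.1 and 28.1 CPM in TNTProx1, against 9.93, 13.2 and 33.2 CPM in TNTSham, a log2 fold change of 0.15 ± 0.29 (SE).

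Sele, E-selectin, had 1.36, 3.23 and 11.2 CPM in TNTProx1, against 2.20, 5.63 and 11.7 CPM in TNTSham. In each group a single library stood well above the rest, TNTProx1 2 and TNTSham 1. The log2 fold change was -0.47 ± 0.46 (SE), and 0.06 without TNTProx1 4 to 6. It was -1.07 without TNTProx1 2 and -0.20 without TNTSham 1. Ackr1, the chemokine-binding receptor that marks venules, had 2.02, 4.21 and 8.95 CPM in TNTProx1, against 4.19, 5.67 and 8.67 CPM in TNTSham, a log2 fold change of -0.36 ± 0.28 (SE). It was -0.02 without TNTProx1 4 to 6.

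Vcam1, which binds the leukocyte integrin VLA-4, had 45.0, 63.4 and 81.8 CPM in TNTProx1, against 43.8, 57.8 and 95.2 CPM in TNTSham, a log2 fold change of 0.12 ± 0.19 (SE). Icam1, the ligand of leukocyte beta-2 integrins, had 26.7, 30.8 and 37.6 CPM in TNTProx1, against 23.9, 28.1 and 37.5 CPM in TNTSham, a log2 fold change of 0.12 ± 0.12 (SE). Both ranges overlapped almost in full. Without TNTProx1 4 to 6, Vcam1 was at 0.30, Icam1 at 0.19, Selp at 0.30 and Vwf at 0.23, and none had an unadjusted edgeR p under 0.05. Within TNTSham, TNTSham 1 was the highest library for each of the 6 venular genes, and within TNTProx1, TNTProx1 2 was the highest for 4. The summed level of 12 leukocyte markers was highest in the same libraries, at 1330 CPM in TNTProx1 2 and 1319 CPM in TNTSham 1, and its part in these values was not tested.

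Other genes around leukocyte entry were measured as well. Of 16 further venular activation genes, 14 were tested and 14 stood higher, with a median log2 fold change of 0.25, 5 at an unadjusted p under 0.05 and 2 called by DESeq2. These were Lrg1, a secreted glycoprotein induced in inflamed vessels, at 0.84 ± 0.22 (SE), and the TNF receptor Tnfrsf1a at 0.34 ± 0.10 (SE), with DESeq2 adjusted p-values of 0.0172 and 0.0421. Without TNTProx1 4 to 6 they were 0.46 and 0.13. Of 8 leukocyte ligands of these adhesion proteins, 5 stood higher with a median of 0.17, led by the integrin subunit Itgb2 at 0.44 ± 0.10 and the P-selectin ligand Selplg at 0.47 ± 0.16 (SE). Of 7 inducing cytokines, 4 had enough counts to be tested and none had an edgeR p under 0.05. Tnf was at 0.58 ± 0.29 and Il1b at 1.08 ± 0.67 (SE), while Ifng, Il4 and Il13 were not tested for want of counts.

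To set the role groups against each other within a library, each member was also expressed relative to Cdh5. Per unit of Cdh5, the median difference between TNTProx1 and TNTSham on the log2 scale was -0.35 for the other junction genes, -0.31 for surface genes, -0.53 for transcription factors, -0.27 for capillary genes, -0.16 for tip cell and apelin genes and -0.77 for venular genes. Over all genes tested it was -0.93. Dividing by a gene that itself stood higher lowers each of these values. In this scale limma trend called 10 members lower after adjustment, 6 of them the venular genes, but it also called 81.1% of all genes lower, so the calls say nothing about the members. With Pecam1 in place of Cdh5 the medians were 0.08, -0.01, -0.23, 0.03, 0.14 and -0.48 in the same order of groups. Over all genes tested the median relative to Pecam1 was -0.64. The difference between role groups was not tested.

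Plvap was set against Cdh5 in each library as the level of a capillary gene relative to a junction gene. Because Plvap serves both fenestrae and caveolae, the ratio does not measure fenestration. The log2 ratio of Plvap to Cdh5 averaged -1.22 ± 0.61 in TNTProx1 and -1.21 ± 0.53 in TNTSham (SD, n = 6 and 7). The difference was -0.01, with a two-sided exact permutation p of 0.976 over the 1716 assignments. Relative to Pecam1 the difference was 0.29, and without TNTProx1 4 to 6 the difference relative to Cdh5 was -0.31.

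The library sums show where the groups met. The summed level of the 20 pan-endothelial genes was 1306, 1133, 1173, 948, 1158 and 1456 CPM in TNTProx1 1 to 6, against 977, 641, 687, 618, 1175, 706 and 637 CPM in TNTSham 1 to 7. TNTSham 1 and TNTSham 5 thus reached the TNTProx1 range, and the other 5 TNTSham libraries did not. These 2 libraries were the top pair within TNTSham for 24 of the 40 members, a count for which no share over all genes was computed. The sum of the 6 venular genes was 201, 241, 211, 181, 175 and 157 CPM in TNTProx1 1 to 6, against 278, 158, 144, 175, 220, 170 and 138 CPM in TNTSham 1 to 7, with TNTSham 1 the highest of all.

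The highest of the 13 libraries was a TNTProx1 library for 32 members and the lowest a TNTSham library for 34. TNTProx1 2 was the highest for 13 members and TNTProx1 6 for 12, and TNTSham 4 was the lowest for 13, TNTSham 7 for 10 and TNTSham 2 for 7. The libraries TNTProx1 4 to 6 lay all below TNTProx1 1 to 3 for 3 members, Podxl, Nos3 and Sox17, and all above them for 3 others, Myct1, Plvap and Emcn. For the other members the sets mixed. Shares over all genes were not computed for the counts in this paragraph, so they describe the members only.

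**Figure D4:**
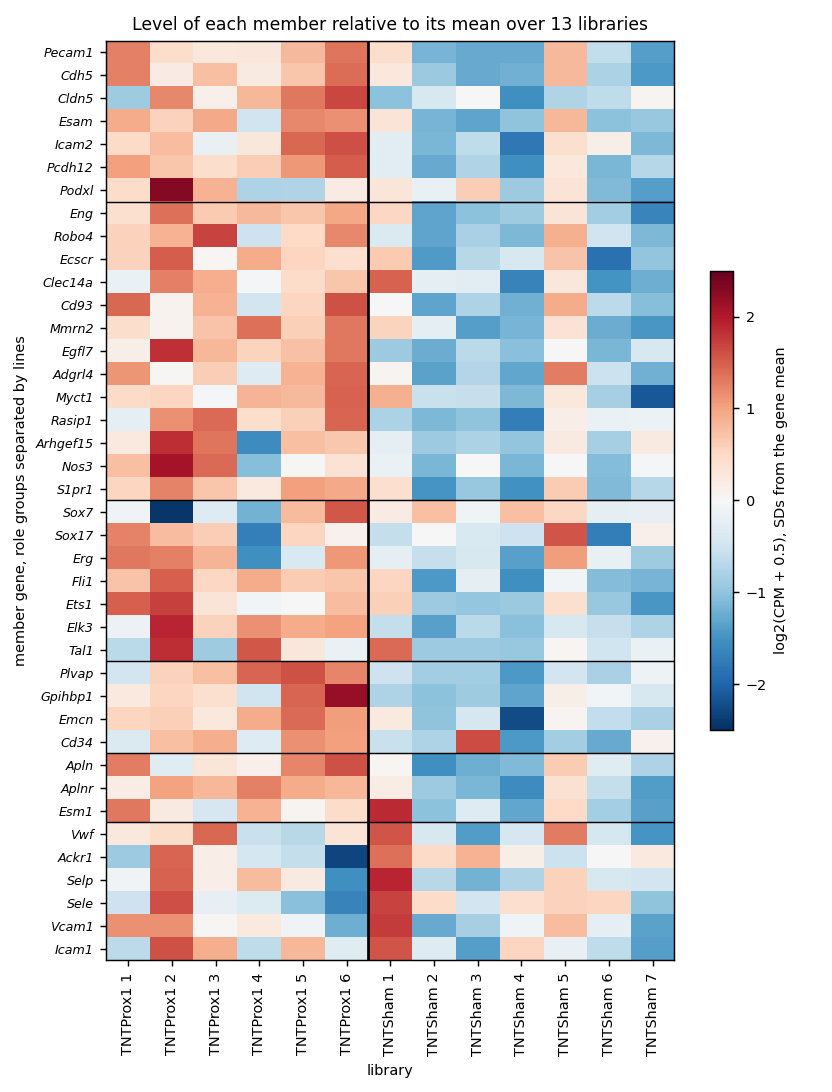
Each of the 40 members in each of the 13 libraries, coloured by log2(CPM + 0.5) in SDs from the gene's own mean over the libraries, with TNTProx1 to the left of TNTSham and lines between role groups. Red, above the mean, fills most of TNTProx1 outside the venular group, and TNTSham 1 and 5 hold most of the red in TNTSham, with TNTSham 1 red for all 6 venular genes.

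Levels can be compared between genes only per length, here as CPM per kilobase of annotated exon. Cdh5 stood highest, at 45.3 CPM per kilobase in TNTProx1 and 25.6 in TNTSham, followed in TNTProx1 by Plvap at 41.6, against 22.0 in TNTSham, and Cd93 at 35.9, against 20.7 in TNTSham. Pecam1 had 29.0 CPM per kilobase in TNTProx1 and 19.7 in TNTSham. The lowest members in both groups were Sox17, at 0.989 in TNTProx1 and 0.880 in TNTSham, and Esm1, at 1.32 in TNTProx1 and 0.951 in TNTSham.

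Markers of neighbouring cell types differed in their shifts, and their part in the endothelial values was not tested. Lymphatic endothelium, which shares Pecam1, Cdh5 and other members with blood vessels, had 10 of 10 markers higher in TNTProx1, a median log2 fold change of 0.38 and a summed level of 938 to 1700 CPM in TNTProx1, against 866 to 1071 CPM in TNTSham. Pericyte markers stood higher in 8 of 8, with a median of 0.31 and a sum of 897 to 1648 CPM in TNTProx1, against 813 to 1140 CPM in TNTSham. Fibroblast markers had a median of 0.36 with 7 of 7 higher. Skeletal muscle markers stood higher in 1 of 8, with a median of -0.60 and a sum of 3662 to 10853 CPM in TNTProx1, against 8427 to 13868 CPM in TNTSham, and keratinocyte markers in 1 of 7, with a median of -0.23. Without TNTProx1 4 to 6 the medians were 0.55 for lymphatic, 0.19 for pericyte and 0.31 for fibroblast markers, against 0.50 for the 40 members. In that fit they were -0.96 for skeletal muscle and -0.79 for keratinocyte markers. The 40 members had a median of 0.38 once a skeletal muscle score was fitted as a covariate.

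Blood cells could bring some of the same transcripts, since platelets carry Selp, Vwf and Pecam1 and leukocytes carry Pecam1, Selplg and Fli1. Platelet and megakaryocyte markers had a median log2 fold change of 0.02 over the 6 of 9 that were tested and summed to 41.6 to 68.4 CPM in TNTProx1, against 41.1 to 58.4 CPM in TNTSham. Leukocyte markers stood higher in 7 of 12, with a median of 0.18 and a sum of 916 to 1330 CPM in TNTProx1, against 783 to 1319 CPM in TNTSham. Erythroid markers summed to 3.94 to 16.7 CPM in TNTProx1, against 3.96 to 12.7 CPM in TNTSham. Among them Alas2 averaged 4.92 CPM in TNTProx1 and 3.97 CPM in TNTSham. The highest globin gene, Hbb-bs, averaged only 1.31 and 1.05 CPM. With globin genes this near the floor, the sum does not show how much blood the samples held. Mast cell and adipocyte markers had medians of 0.09 and 0.08. Without TNTProx1 4 to 6 the medians were 0.01 for platelet, 0.07 for leukocyte and 0.51 for erythroid markers. For mast cell and adipocyte markers they were -0.32 and -0.30.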

How the data were processed

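Whole-tissue RNA of 13 mouse tail samples was sequenced in pairs from stranded, ribosome-depleted libraries, per the labels' protocols. Per the submitters' processing notes, tools were fastp 0.20.1, HISAT2 2.2.1, featureCounts of Subread 2.0.2, DESeq2 1.34.0 and R 4.1.2 on build GRCm39. Not given in the sources used here are the annotation release, the strand setting and how multimapping reads were treated. The authors deposited 1 table of raw counts per gene for all samples, and its columns carry the sample titles.

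From the counts, 29.7M to 48M (M, mega) per library, genes were kept by filterByExpr and compared with edgeR 4.0.16 under R 4.3.3: TMM scaling, quasi-likelihood F test, group alone, Benjamini-Hochberg adjustment over all 22876 genes, threshold 0.05. The common biological coefficient of variation was 0.362. CPM are TMM-scaled, and fold changes are TNTProx1 over TNTSham. Of the 55357 identifiers, 52081 were given symbols from GENCODE M21, an annotation of the older build GRCm38, which also gave gene classes and exon lengths. Ratios to Cdh5 were fitted with limma 3.58.1 (trend) on log2(CPM + 0.5), and Plvap over Cdh5 was tested by exact permutation. The tests were checked on simulated counts.

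The members, role groups, further lists, cell type markers, tests and the fit without TNTProx1 4 to 6 were chosen with earlier results of these data known. Every member is named. The lowest, median and highest library are given for 16 chosen members and the 3 of smallest p in each role group, and values for the 2 of smallest p in each further list. Alternatives were DESeq2 1.42.0, its size factors, upper quartile scaling, limma trend, limma voom with quality weights, no low-count filter, a floor of 1 CPM in 6 libraries, the robust form of the edgeR fit, each library left out, and the TEC share or a skeletal muscle score as a covariate.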

Additional observations from a re-analysis of the deposited data

Results flagged for a closer look

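Within each group the highest and lowest library of every member was compared with the gap to its nearest neighbour. Of the 80 gene and group combinations, 8 had a library far from the others of its group. For independent, normally distributed values the rule flags about 1 in 20. The members were measured in the same libraries, so no excess can be read from the 8. In TNTProx1 2, Sele stood at 11.2 CPM, above the other TNTProx1 libraries. In TNTSham 5, Robo4 stood at 28.8 CPM, Adgrl4 at 79.7 CPM and Erg at 27.1 CPM, each far above the other TNTSham libraries. In TNTSham 1, Tal1 stood at 9.65 CPM, Esm1 at 6.82 CPM, Selp at 33.2 CPM and Sele at 11.7 CPM, again above the rest of TNTSham. The high libraries for Sele were thus 1 in each group.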

How the results depend on the processing

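The count of members called higher after adjustment was 0 in edgeR, 15 with DESeq2, 12 with limma voom and quality weights, 5 with the TEC share as a covariate, and 0 to 8 when each library was left out. It was 8 without TNTProx1 1 and 3 without TNTSham 5. Of all genes, edgeR called 0% higher, limma voom 1.86% and the TEC fit 0.782%. DESeq2 called 2.64% of the genes it gave an adjusted p. Shares over all genes are not given here for the fits with a library left out. The venular median was -0.33 with the muscle score as a covariate, and that fit also turned the sign of Sox7 (0.15), Tal1 (-0.02), Vwf (-0.08), Selp (-0.41), Vcam1 (-0.25) and Icam1 (-0.09). Sele was 0.06 without TNTProx1 4 to 6. With each library left out, Sox7 ran from -0.31 to 0.01, Selp from -0.03 to 0.42 and Vwf from -0.01 to 0.19, and no other member turned sign. Sele ran from -1.07 without TNTProx1 2 to -0.20 without TNTSham 1, Podxl from 0.09 without TNTProx1 2 to 0.29, and the venular median from 0.01 without TNTProx1 2 to 0.19 without TNTSham 1. Members called lower per unit of Cdh5 numbered 10, where 81.1% of all genes were called lower, so the count says nothing about the members. Such members numbered 5 with Pecam1 as the denominator, 1 without TNTProx1 4 to 6, and 4 to 22 with each library left out. They numbered 5 without TNTProx1 1, 4 without TNTProx1 6, 6 without TNTSham 2 or TNTSham 3, and 22 without TNTSham 5. Shares over all genes are not given here for these further fits, so their counts describe the members only. The difference of Plvap over Cdh5, near 0, was 0.29 over Pecam1, -0.31 without TNTProx1 4 to 6, and ran from -0.14 to 0.20 with each library left out. The cause of these shifts was not tested. The median of the 40 members ran from 0.38 to 0.57 over all alternatives. No paired analysis was possible because the replicate numbers follow accession order and pair nothing. The 6 and 7 libraries varied by a coefficient of 0.362. Small differences in genes of wide spread, such as Esm1 and Sele with standard errors of 0.55 and 0.46, were not detectable.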
